A study of Homo sapiens with 6 samples.

Results

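The transcripts of 10 members of the Notch pathway were followed in 12Z, a human epithelial line established from endometriosis, after knockdown of the long non-coding RNA LINC01638. The genes were taken by symbol from a named list and comprise 3 receptors (NOTCH1, NOTCH2, NOTCH3), 3 ligands (JAG1, JAG2, DLL1) and 4 target genes (HES1, HES4, HEY1, NRARP). All 10 were found among the 62696 genes of each count table and all 10 passed the filter on low counts, which left 18569 genes for testing. The design had 2 groups of 3 libraries of total RNA, harvested 72 h after lipid transfection with a control siRNA or with 1 siRNA against LINC01638. The groups shared the cell line, the medium and the transfection reagent. With 1 siRNA, effects of that siRNA and of the loss of its target cannot be told apart. In such bulk RNA a lower level in all cells and fewer cells that express a gene cannot be told apart either. The labels letter the replicates A, B and C without saying that they were separate cultures, so a p-value here reflects only how these 6 libraries vary, and that variation may be technical.

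Notch receptors are single-pass membrane proteins that are cut by furin during maturation and switched on by ligands of the Jagged and Delta-like families on neighbouring cells. Ligand pulling exposes the receptor to ADAM proteases and then to γ-secretase, which frees the intracellular domain to join the DNA-binding protein RBPJ and a Mastermind coactivator in the nucleus. HES and HEY genes, which encode basic helix-loop-helix repressors, and NRARP, which encodes an ankyrin-repeat protein that limits Notch signalling, are widely used readouts of this step. In the endometrium, Notch signalling is known for roles in the decidual change of the stroma and in the balance of secretory and ciliated epithelial cells. Transcript counts do not measure receptor cleavage.

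Counts assigned to genes ranged from 45617234 to 58148664 per library. LINC01638 itself had 407, 334 and 414 counts with control siRNA (replicates A, B and C, the order kept below) against 125, 103 and 123 after knockdown, so the targeted RNA was lower in each library of its group (log2 fold change −1.87, SE 0.111, edgeR adjusted p = 3.73e-11). Of the other genes in the title of the series, RHOB fell (log2 fold change −1.97, edgeR adjusted p = 8.48e-15) and HDAC1 rose (1.06, edgeR adjusted p = 8.51e-13). Of the epithelial markers, KRT8, KRT18 and KRT19 were abundant, with a summed level of 8 epithelial markers of 5198 to 5642 CPM (library-scaled counts, by the trimmed mean of M-values or TMM) in control and 3198 to 3724 CPM in LINC01638 siRNA libraries. Of the 8, 7 fell, while EPCAM, a scarce transcript here, rose from 0.377 ± 0.0682 to 1.38 ± 0.201 CPM (edgeR adjusted p = 2.33e-06). CDH1, the epithelial cadherin, fell from 8.14 ± 0.806 to 3.58 ± 0.219 CPM. Stromal markers summed to 298 to 329 CPM in control and 222 to 242 CPM in LINC01638 siRNA libraries. The keratin-rich line thus also carries transcripts usual for stroma. Of the 6 stromal markers 4 fell and 2 rose. Of all genes tested 29.6% fell and 26.3% rose. Reads in no annotated exon on the counted strand were 9.18% ± 0.864 of those mapped in control (SD, n = 3 per group). In knockdown libraries they were 13.2% ± 1.67. This share includes reads on the opposite strand of exons. Opposite-strand counts were 6.47% ± 0.0200 of counts on both strands in control and 6.66% ± 0.0362 in knockdown libraries. For each measure an exact permutation test, two-sided, gave p = 0.1, and 3 against 3 libraries cannot give less. Their part in the changes below was not tested.

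Of the 10 Notch genes, 3 rose (JAG1, HEY1, NRARP), 3 fell (JAG2, HES1, HES4) and 4 did not pass an edgeR adjusted p of 0.05 (NOTCH1, NOTCH2, NOTCH3, DLL1). The knockdown moved much of the transcriptome, and 56.0% of all genes tested passed the same threshold, 26.3% higher and 29.6% lower with LINC01638 siRNA. The count of 6 in 10 is therefore near the background. Those 6 genes were also the ones with separate value ranges in both groups, a pattern seen for 61.5% of all genes tested. The median log2 fold change of the 10 was −0.084, beside −0.0014 over all genes tested. All 3 receptors lay among the genes that did not pass, whereas all 4 targets passed, split evenly between the directions. The size of the change does not separate them. NOTCH3 (log2 fold change −0.21) and NOTCH2 (−0.135, SE 0.114) changed at least as much as HES1 (−0.134, SE 0.0510). HES1 lost its call under 12 of 17 alternative settings of the fit, whereas NOTCH2 passed in 3 and NOTCH3 in 2.

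**Figure D1:**
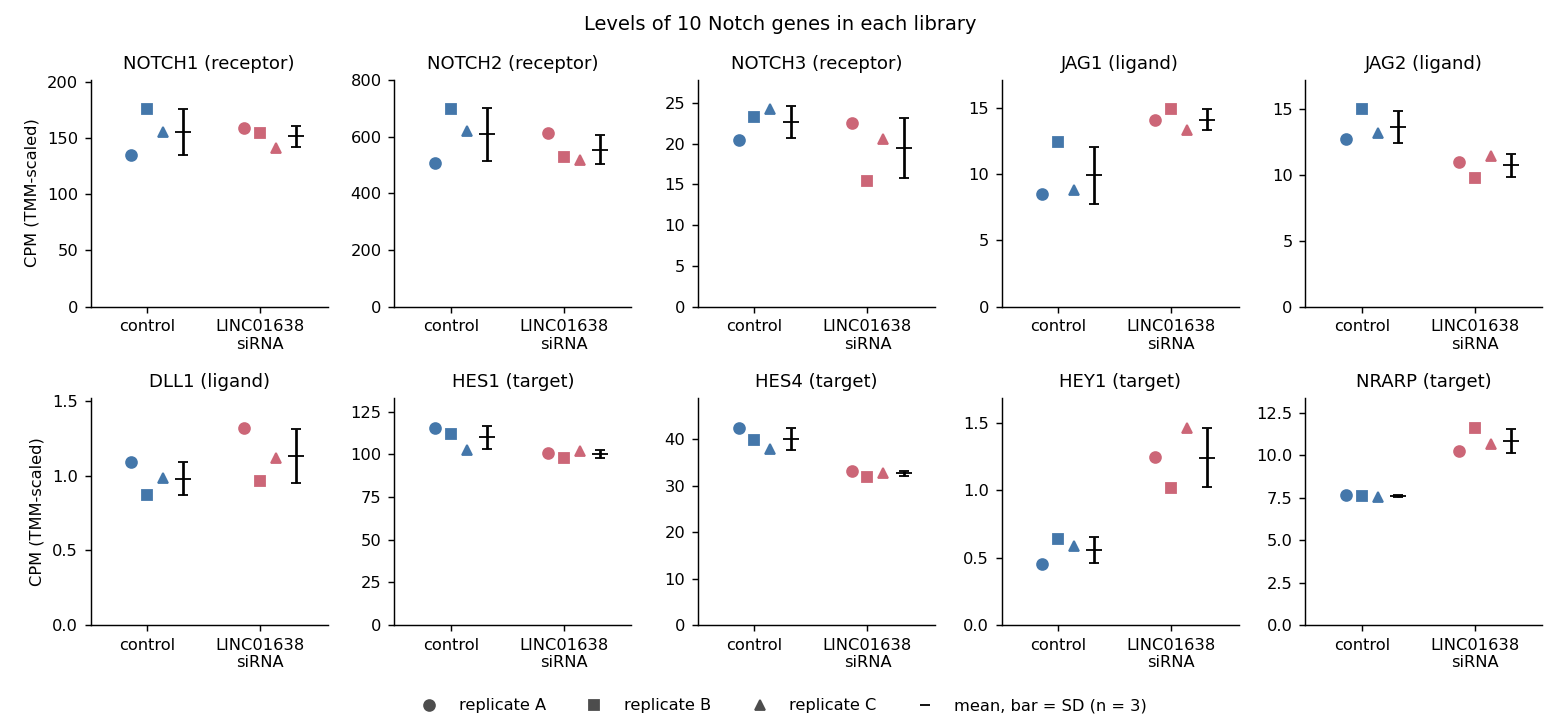
Level of each of the 10 Notch genes in every library, in TMM-scaled CPM on a linear axis that starts at 0; symbols give the replicate letter, and the bar at the right of each group its mean and SD (n = 3). The groups overlap for the 3 receptors and DLL1, while JAG1, HEY1 and NRARP are higher and JAG2, HES1 and HES4 lower in all 3 LINC01638 siRNA libraries.

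Scaled per kilobase of annotated exon, so that genes can be compared, HES1 was the most abundant of the 10 in control libraries at 53.3 ± 3.24 CPM per kb (SD, n = 3). NOTCH2 (36.2 ± 5.65) and HES4 (35.8 ± 2.05) followed with overlapping values, then NOTCH1 (14.97 ± 1.94) and NRARP (4.29 ± 0.0379). NOTCH3 (2.41 ± 0.208) and JAG2 (2.13 ± 0.186) overlapped too, and JAG1 (1.06 ± 0.234), DLL1 (0.304 ± 0.0338) and HEY1 (0.173 ± 0.0303) were lowest. The cells thus held far more receptor than ligand transcript per length. With LINC01638 siRNA the top 8 kept their order of means, but JAG1 (1.52 ± 0.0854) now overlapped JAG2 (1.68 ± 0.133), and HEY1 (0.385 ± 0.0686) overlapped DLL1 (0.351 ± 0.0555).

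NOTCH2 (ENSG00000134250.21, GRCh38 chromosome 1, 119911553 to 120069626, minus strand) was the main receptor transcript. Its level was 509, 698 and 620.4 CPM in the control libraries and 614, 530.1 and 520.04 CPM after knockdown. The control libraries spanned the whole range of the knockdown libraries, with replicate A lowest and B highest. The log2 fold change was −0.13 with a 95% interval of −0.40 to 0.13 (edgeR adjusted p = 0.353). Without control replicate A the difference passed the threshold (log2 fold change −0.24, edgeR adjusted p = 0.0210), as it also did with all 6 libraries when no filter was used or exon length offsets were added. Of the 50-base windows in annotated NOTCH2 transcripts, 76.6% occur in no other gene of GENCODE 29. The rest is shared mainly with NOTCH2NLA and NBPF genes, so counts from those stretches are uncertain. NOTCH2NLB, NOTCH2NLC and NOTCH2NLR have no entry in that release, so windows shared with them were not sought.

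NOTCH1 (ENSG00000148400.13, chromosome 9, 136494433 to 136545786, minus strand), the best-studied receptor of epithelia, had 135, 176 and 155 CPM in control and 159, 155 and 141 CPM in LINC01638 siRNA libraries. These groups overlapped over nearly their whole range (log2 fold change −0.035, 95% interval −0.22 to 0.15, edgeR adjusted p = 0.750). NOTCH3 (ENSG00000074181.9, chromosome 19, 15159038 to 15200981, minus strand), a receptor known from mural cells, had 20.5, 23.3 and 24.2 CPM in control and 22.6, 15.4 and 20.6 CPM in LINC01638 siRNA libraries. Its lowest value came from LINC01638 siRNA replicate B, and replicates A and C of that group lay inside the control range. The summed level of 8 mural and smooth muscle markers was 470.4 to 567 CPM in control and 283 to 328 CPM in LINC01638 siRNA libraries, with CSPG4, MCAM and PDGFRB lower and ACTA2, RGS5 and DES higher past the threshold. Their part in the NOTCH3 values was not tested. The fitted change of NOTCH3 was −0.21 (95% interval −0.49 to 0.07, edgeR adjusted p = 0.176), and it passed once LINC01638 siRNA replicate A was left out (−0.33, edgeR adjusted p = 0.0163).

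Among the ligands JAG1 rose and JAG2 fell. JAG1 (ENSG00000101384.12, chromosome 20, 10637684 to 10673999, minus strand), a ligand of many epithelia, had 8.48, 12.4 and 8.79 CPM in control and 14.1, 14.9 and 13.3 CPM in LINC01638 siRNA libraries. Every knockdown library was above every control library, although control replicate B came close. The rise was 1.43-fold (log2 fold change 0.52, SE 0.119, edgeR adjusted p = 0.00181).

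JAG2 (ENSG00000184916.9, chromosome 14, 105140981 to 105168824, minus strand), the second Jagged ligand, had 12.7, 14.997 and 13.2 CPM in control and 10.96, 9.80 and 11.5 CPM in LINC01638 siRNA libraries. It was lower in all 3 knockdown libraries, a fall of 1.27-fold (log2 fold change −0.34, SE 0.0858, edgeR adjusted p = 0.00209). DLL1 (ENSG00000198719.9, chromosome 6, 170282206 to 170306565, minus strand), a Delta-like ligand, was scarce, with 58, 38 and 52 counts in control and 72, 50 and 67 in LINC01638 siRNA libraries. At this depth its change could lie anywhere from −0.24 to 0.65 on the log2 scale (95% interval, fitted value 0.20, edgeR adjusted p = 0.433).

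The share of JAG1 among the Jagged ligands rose, as seen in counts compared within each library, which do not depend on scaling between libraries. For each 100 JAG2 counts there were 66.6, 82.6 and 66.6 JAG1 counts in control and 129, 152 and 116 in LINC01638 siRNA libraries. The ratio was higher in every knockdown library than in any control library, and its mean was 1.84-fold higher. JAG1 has the longer exons when every annotated exon is counted (9298 against 6397 bases), so 100 need not be parity. Per kilobase of these exons JAG2 remained above JAG1 in knockdown replicates A and C and was below it in B. The transcripts expressed here may be shorter, so this order depends on the lengths used. Transcripts of JAG2 are richer in G and C (64.0%) than those of JAG1 (49.6%), and protein-coding genes above 60% GC had a median log2 fold change of −0.19, against 0.049 below 45% GC. With offsets for this trend, an alternative chosen after the data were seen, JAG1 kept its rise (log2 fold change 0.53, edgeR adjusted p = 0.00244), whereas JAG2 no longer passed (−0.17, edgeR adjusted p = 0.0697). Whether the trend with GC content is technical was not tested.

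Of the target genes, HES1 and HES4 fell slightly. HES1 (ENSG00000114315.4, chromosome 3, 194136145 to 194138732, plus strand) encodes the repressor most often read as a Notch response. It had 116, 112 and 103 CPM in control and 101, 97.8 and 102 CPM in LINC01638 siRNA libraries. The groups were adjacent without overlap, and the fall was 1.10-fold (log2 fold change −0.13, SE 0.0510, edgeR adjusted p = 0.0318). This call was lost under 12 of 17 alternatives, among them DESeq2 (adjusted p = 0.0752) and library totals alone, where the log2 fold change was −0.031 (edgeR adjusted p = 0.620). HES4 (ENSG00000188290.11, chromosome 1, 998962 to 1000172, minus strand), a close relative of HES1, had 42.5, 39.8 and 37.9 CPM in control and 33.2, 31.97 and 32.8 CPM in LINC01638 siRNA libraries. All 3 knockdown values lay below the control range, a fall of 1.23-fold (log2 fold change −0.30, SE 0.0579, edgeR adjusted p = 2.11e-04). HES4 transcripts are 73.9% G and C, the highest share of the 10, and with the GC offsets the change was −0.056 (edgeR adjusted p = 0.401).

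Promoters of 8 of the 10 genes were taken by symbol from RefSeq (GRCh38.p14), as the 250 bases before and 50 bases after each gene's start. DLL1 and HEY1, the member with the largest change, were not among the promoters searched. The 8 promoters were searched on both strands for TGGGAA, the core of the RBPJ motif, which 21.9% of 12032 promoters of tested genes of the same length hold. HES1 held 2 copies and HES4 held 1, and none lay in these windows of NOTCH1, NOTCH2, NOTCH3, JAG1, JAG2 or NRARP. Only exact copies were counted, so sites with a variant of this core were not sought. The 7-base form GTGGGAA, which includes the core, occurred once in HES1 and once in HES4 (5.79% of promoters). Shown 5′ to 3′, with TGGGAA in capitals, are the targets HES1 and HES4, which hold it, and JAG1 and NRARP, which rose and do not. They were chosen for display with their calls known, and sites outside these windows were not sought. A match is a description of letters and shows no binding in these cells.
HES1, chr3:194135898-194136197, plus strand: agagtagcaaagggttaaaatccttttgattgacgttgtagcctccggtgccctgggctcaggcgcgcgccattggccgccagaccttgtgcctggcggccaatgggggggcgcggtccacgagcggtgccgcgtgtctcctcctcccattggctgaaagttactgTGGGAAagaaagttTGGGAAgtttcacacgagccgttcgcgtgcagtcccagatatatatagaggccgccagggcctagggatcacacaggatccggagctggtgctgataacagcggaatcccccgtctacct
HES4, chr1:1000048-1000347, minus strand: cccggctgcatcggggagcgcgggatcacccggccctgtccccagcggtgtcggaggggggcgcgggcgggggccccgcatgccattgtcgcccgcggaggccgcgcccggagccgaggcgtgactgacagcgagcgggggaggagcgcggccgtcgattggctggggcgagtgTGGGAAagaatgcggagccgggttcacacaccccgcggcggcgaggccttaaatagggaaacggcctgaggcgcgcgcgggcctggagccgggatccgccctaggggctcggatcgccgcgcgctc
JAG1, chr20:10673950-10674249, minus strand: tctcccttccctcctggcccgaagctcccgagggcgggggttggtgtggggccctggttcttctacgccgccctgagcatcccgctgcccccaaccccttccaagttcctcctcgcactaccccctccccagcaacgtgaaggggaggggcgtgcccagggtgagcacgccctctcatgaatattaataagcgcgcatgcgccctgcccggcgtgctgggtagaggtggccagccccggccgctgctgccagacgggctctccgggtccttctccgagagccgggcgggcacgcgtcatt
NRARP, chr9:137302222-137302521, minus strand: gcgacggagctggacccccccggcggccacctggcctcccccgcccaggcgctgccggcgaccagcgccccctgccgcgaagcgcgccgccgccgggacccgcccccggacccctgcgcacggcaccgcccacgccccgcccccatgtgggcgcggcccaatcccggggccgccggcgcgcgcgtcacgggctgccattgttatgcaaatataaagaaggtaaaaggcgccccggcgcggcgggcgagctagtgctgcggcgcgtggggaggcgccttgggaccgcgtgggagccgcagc

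In the HES1 promoter the copies of TGGGAA begin 84 and 70 bases before the gene's start, both on the strand of the gene, and the copy in HES4 begins 76 bases before it. HES1 also holds 4 copies of CACNAG, the N-box that HES proteins bind (34.5% of promoters hold at least 1), the NRARP window holds 1 and the HES4 and JAG1 windows none. JAG2 fell as well and holds no TGGGAA in its window.

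NRARP and HEY1 rose. NRARP (ENSG00000198435.4, chromosome 9, 137300482 to 137302251, minus strand), the feedback inhibitor, had 7.66, 7.58 and 7.52 CPM in control and 10.2, 11.6 and 10.6 CPM in LINC01638 siRNA libraries. The control libraries were nearly equal and all knockdown libraries lay above them. The rise was 1.43-fold (log2 fold change 0.51, SE 0.0849, edgeR adjusted p = 3.28e-05), and with the GC offsets it was larger (0.71, edgeR adjusted p = 9.22e-07). HEY1 (ENSG00000164683.19, chromosome 8, 79764010 to 79767863, minus strand), a repressor of the Hairy-related family, showed the largest change of the 10. Its counts were 24, 28 and 31 in control and 68, 53 and 88 in LINC01638 siRNA libraries. It went from 0.559 ± 0.0979 to 1.24 ± 0.222 CPM (SD, n = 3 each), with no overlap (log2 fold change 1.16, SE 0.241, 95% interval 0.66 to 1.67, edgeR adjusted p = 3.68e-04).

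**Figure D2:**
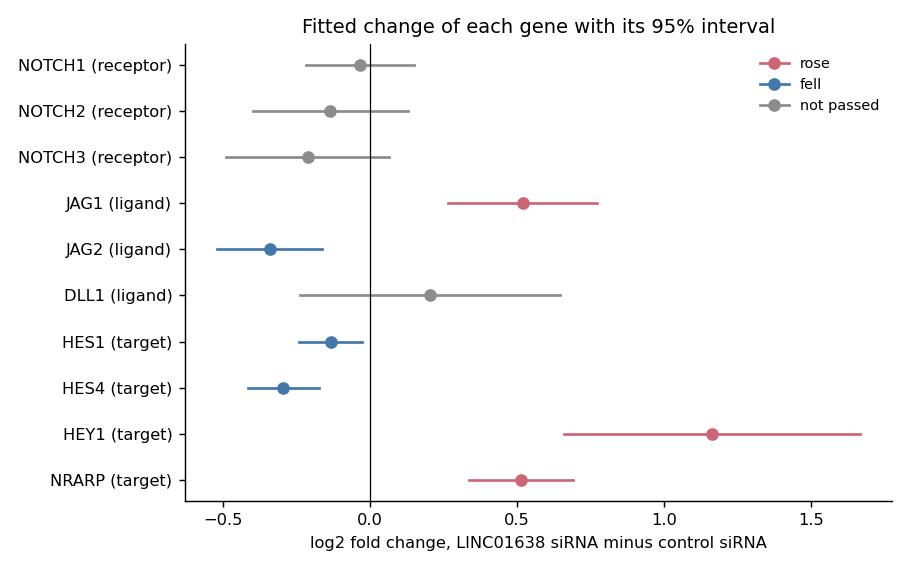
Log2 fold change of each Notch gene, LINC01638 siRNA minus control siRNA, from the edgeR fit of all genes, with its 95% interval (n = 3 libraries per group); colour gives the call at an adjusted p of 0.05. The receptors and DLL1 have intervals that include 0, and HEY1 stands furthest from it at 1.16.

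The other targets were also set against HES1 within each library. NRARP stood at 6.63, 6.78 and 7.34 counts for each 100 HES1 counts in control and at 10.1, 11.9 and 10.5 in LINC01638 siRNA libraries, a 1.57-fold higher mean. HEY1 stood at 0.390, 0.573 and 0.570 in control and at 1.23, 1.04 and 1.44 in LINC01638 siRNA libraries, a 2.42-fold higher mean. HES4 went from 36.8, 35.6 and 37.0 to 32.8, 32.7 and 32.2 counts for each 100 of HES1. None of these ratios overlapped between groups. The lower HES4 ratio depends on the GC trend: with GC offsets the fitted changes were −0.056 for HES4 and −0.12 for HES1, so the order of their changes turned.

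**Figure D3:**
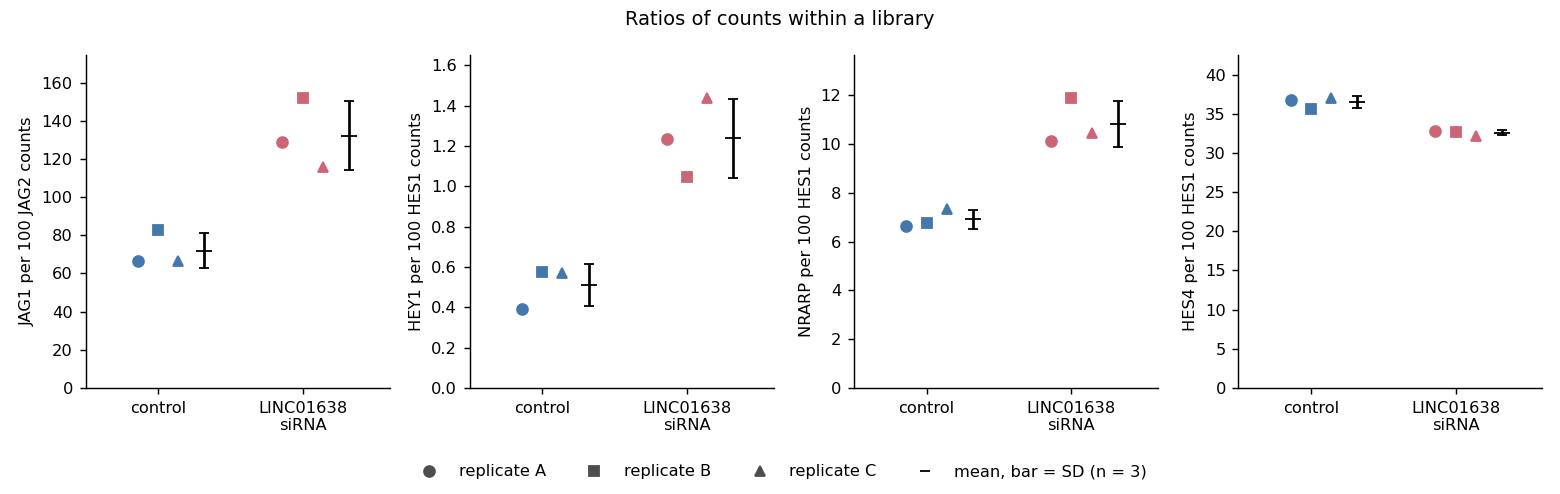
Ratios of counts within each library: JAG1 for each 100 JAG2 counts, and HEY1, NRARP and HES4 for each 100 HES1 counts, on linear axes from 0, with replicate letters as symbols and mean and SD (n = 3) beside them. JAG1 for each 100 JAG2 counts is 66.6 to 82.6 in control and 116 to 152 in LINC01638 siRNA libraries. The genes differ in annotated exon length, so 100 need not be parity.

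The rest of the pathway was read from 12 lists with 93 other genes, of which 85 were tested; 22 rose, 31 fell and 32 did not pass, with a median log2 fold change of −0.066. This share of calls, like that of the members, is near the background of 56.0%. Up to 3 genes of each list were named by lowest p, and the further genes given with the counts below were named after their values were seen.

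NOTCH4, the other receptor gene, missed the threshold, and so did the NOTCH2 N-terminal-like copies NOTCH2NLA, NOTCH2NLB, NOTCH2NLC and NOTCH2NLR. Among 4 tested ligands DLL4 rose and DNER and DLK2 fell. DLL4, the Delta-like ligand of sprouting vessels, had 9, 12 and 5 counts in control and 53, 32 and 53 in LINC01638 siRNA libraries (0.179 ± 0.0907 against 0.823 ± 0.185 CPM). The fitted rise was 2.23 on the log2 scale (SE 0.367, edgeR adjusted p = 3.20e-05). It remained below 1 CPM in all 6 libraries. Of 8 endothelial markers, 4 had a mean under 1 CPM (PECAM1, TEK, CLDN5 and ERG), of which ERG had 1 count in 1 library and 0 in the other 5. Their summed level was 23.9 to 30.5 CPM in control and 13.5 to 16.4 CPM in LINC01638 siRNA libraries, carried mainly by TIE1 and KDR, which fell. The other tested markers, CDH5 (log2 fold change 0.77) and VWF (0.86), rose, VWF with overlapping groups. Their part in the DLL4 or HEY1 values was not tested. DNER, a non-canonical ligand, had a log2 fold change of −0.64 (edgeR adjusted p = 0.00110). DLK2, a non-canonical ligand of the Delta-like family, had one of −0.27 (edgeR adjusted p = 0.0293) with overlapping groups, and it was lost under 7 of 17 alternatives.

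Among the processing enzymes, FURIN, the protease of receptor maturation, rose from 74.4 ± 5.29 to 99.4 ± 2.85 CPM (edgeR adjusted p = 1.44e-06). ADAM17 fell with overlapping groups (log2 fold change −0.15, edgeR adjusted p = 0.0273), a call lost under 7 of 17 alternatives. ADAM10, the main ligand-dependent protease, did not pass (0.10, edgeR adjusted p = 0.127). Of 6 γ-secretase subunits 1 rose, 1 fell and 4 did not pass. APH1B fell from 21.6 ± 1.96 to 13.5 ± 1.83 CPM (edgeR adjusted p = 5.33e-06), while the scarce PSEN2 rose (0.56, edgeR adjusted p = 0.0329), a call lost under 6 of 17 alternatives.

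Glycosyltransferases modify the receptor's extracellular repeats, and the 7 of 11 that passed are near the background of 56.0%. LFNG (Lunatic fringe), which lengthens O-fucose and so tunes the response to Jagged and Delta-like ligands, had 13.8, 16.7 and 15.01 CPM in control and 5.22, 5.72 and 4.91 CPM in LINC01638 siRNA libraries. Its groups were far apart, a fall of 2.87-fold (log2 fold change −1.52, SE 0.0939, edgeR adjusted p = 6.58e-11). Of the 11 tested, 5 fell (LFNG, EOGT −0.45, RFNG −0.32, XXYLT1 −0.32 and POGLUT3 −0.29), 2 rose (GXYLT1 0.77 and POGLUT2 0.20) and 4 did not pass. GXYLT1, a xylosyltransferase, went from 32.3 ± 2.56 to 55.0 ± 3.30 CPM (edgeR adjusted p = 3.72e-09). MFNG, the third fringe gene, was below 1 CPM in all libraries and did not pass.

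Ubiquitin ligases that send ligands into endocytosis split as well. MIB1 (Mind bomb 1) fell from 155 ± 6.34 to 90.1 ± 3.999 CPM (a change of −0.79, edgeR adjusted p = 1.04e-10) and NEURL1B fell less (−0.26), whereas NEURL1 rose from 0.875 ± 0.368 to 2.21 ± 0.199 CPM (1.35, edgeR adjusted p = 9.73e-05), and MIB2 did not pass. Of 12 genes of receptor turnover 3 rose (CCNC 0.67, FBXW7 0.52 and NUMB 0.33), 3 fell (NUMBL −0.83, AAK1 −0.27 and DTX2 −0.17) and 6 did not pass; DTX2 lost its call under 8 of 17 alternatives. FBXW7, which marks the intracellular domain for degradation, rose from 37.1 ± 1.59 to 53.0 ± 0.643 CPM. The Numb relatives, endocytic adaptors that restrain Notch, thus had opposite signs, with NUMBL going from 85.7 ± 1.91 to 48.1 ± 1.33 CPM (edgeR adjusted p = 3.61e-11).

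In the nucleus, RBPJ, the DNA-binding partner of Notch, had 85.9, 81.2 and 90.7 CPM in control and 48.3, 58.6 and 52.8 CPM in LINC01638 siRNA libraries. All 3 knockdown libraries were well below the controls (log2 fold change −0.69, SE 0.0637, edgeR adjusted p = 3.27e-08). The Mastermind coactivators MAML2 (0.46) and MAML1 (0.32) rose together with the acetyltransferase CREBBP (0.48, 233 ± 10.4 to 326 ± 19.7 CPM) and SNW1 (0.12). KAT2A (−0.17) and KAT2B (−0.17) fell with RBPJ. Of the 9 tested, 4 rose and 3 fell, beside 26.3% and 29.6% of all genes tested. SNW1 lost its call under 9 and KAT2A under 5 of 17 alternatives. Among the RBPJ corepressors, SPEN (0.54), CIR1 (0.27) and KDM5A (0.26) rose, and CTBP2 (−0.48), BEND6 (−0.41), RITA1 (−0.26) and SAP30 (−0.24) were among those that fell. SPEN, the scaffold that brings histone deacetylases to RBPJ, rose from 164 ± 14.1 to 239 ± 16.6 CPM (edgeR adjusted p = 6.87e-07). All 5 genes of the Groucho/TLE family, which includes corepressors of HES and HEY, passed, beside 56.0% of all genes tested. TLE4 rose from 104 ± 2.14 to 171 ± 3.53 CPM (0.72), and TLE2 (−1.06), TLE1 (−0.79), TLE3 (−0.32) and TLE5 (−0.25) fell.

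Other HES and HEY genes were near the limit of detection or mixed. HES2 rose from 4, 5 and 7 counts to 17, 23 and 40 (edgeR adjusted p = 4.08e-04), and HES5, a classical Notch target of neural tissue, fell from 21, 11 and 13 counts to 3, 7 and 1 (edgeR adjusted p = 0.00295). BHLHE40, a related repressor, fell from 106 ± 3.89 to 73.9 ± 2.701 CPM (a change of −0.51, edgeR adjusted p = 3.04e-08). HES6, HES7 and BHLHE41 did not pass, and HES3, HEY2, HEYL and HELT were too scarce to be tested. Among 8 tested genes widely used as Notch targets in other settings, 4 rose (CDKN1A 1.80, GATA3 1.39, ACTA2 0.85 and CCND1 0.39), 3 fell (SNAI2 −1.62, MYC −0.72 and NFKB2 −0.18) and SOX9 did not pass. Of all genes tested, 26.3% rose and 29.6% fell. CCND1 lost its call under 5 of 17 alternatives, and GATA3 had at most 24 counts in any library. The cyclin-dependent kinase inhibitor CDKN1A, the transcription factor MYC and the EMT factor SNAI2 have many regulators besides Notch.

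**Figure D4:**
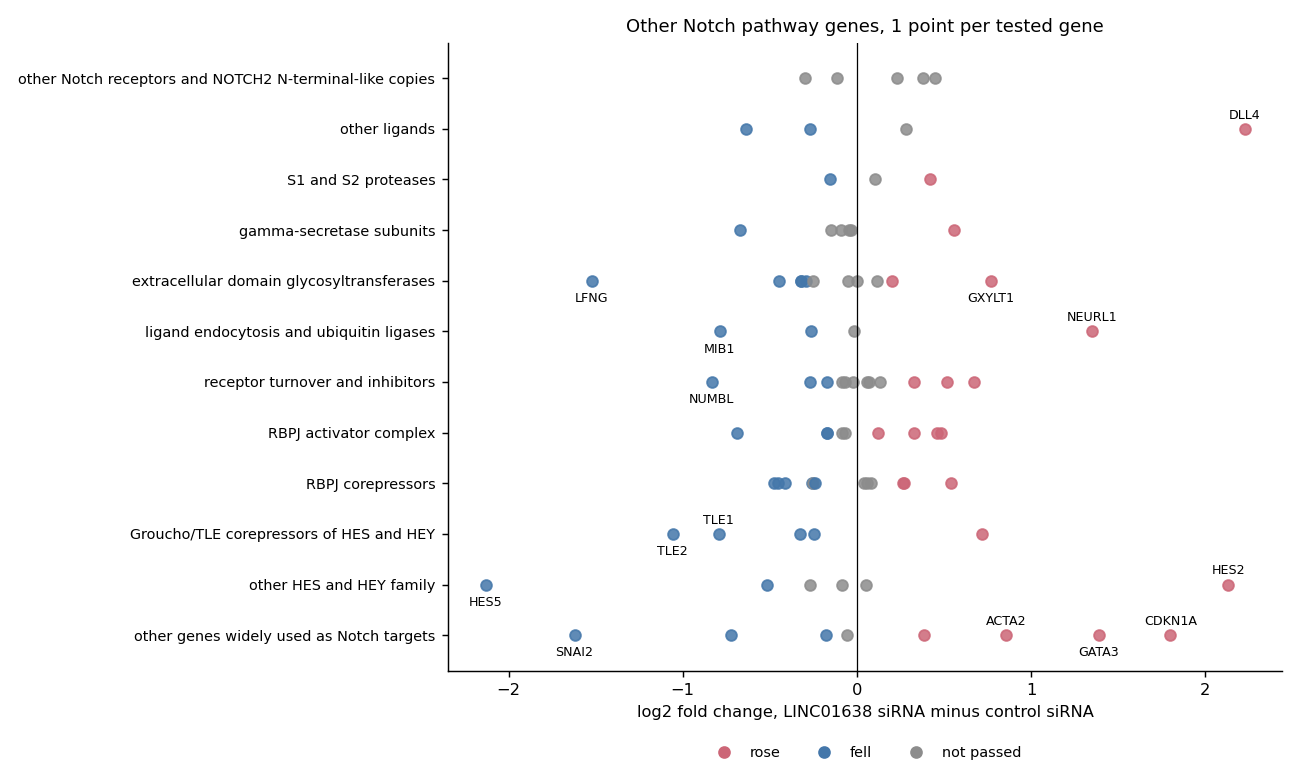
Log2 fold change (LINC01638 siRNA minus control siRNA) of the 85 tested genes of the 12 other Notch pathway lists, 1 point per gene, coloured by the call at an edgeR adjusted p of 0.05; called genes beyond 0.75 in either direction are labelled. LFNG, MIB1, NUMBL, TLE1 and TLE2 lie on the low side and DLL4, HES2 and NEURL1 on the high side.

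Across the 17 alternative settings of the fit, JAG1, HEY1 and NRARP passed in each, and NOTCH1 and DLL1 in none. The log2 fold change of JAG1 ranged from 0.43 to 0.70, that of HEY1 from 1.02 to 1.28 and that of NRARP from 0.46 to 0.71. JAG2 and HES4 each passed in 16 of 17, the exception being the GC offsets.

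**Figure D5:**
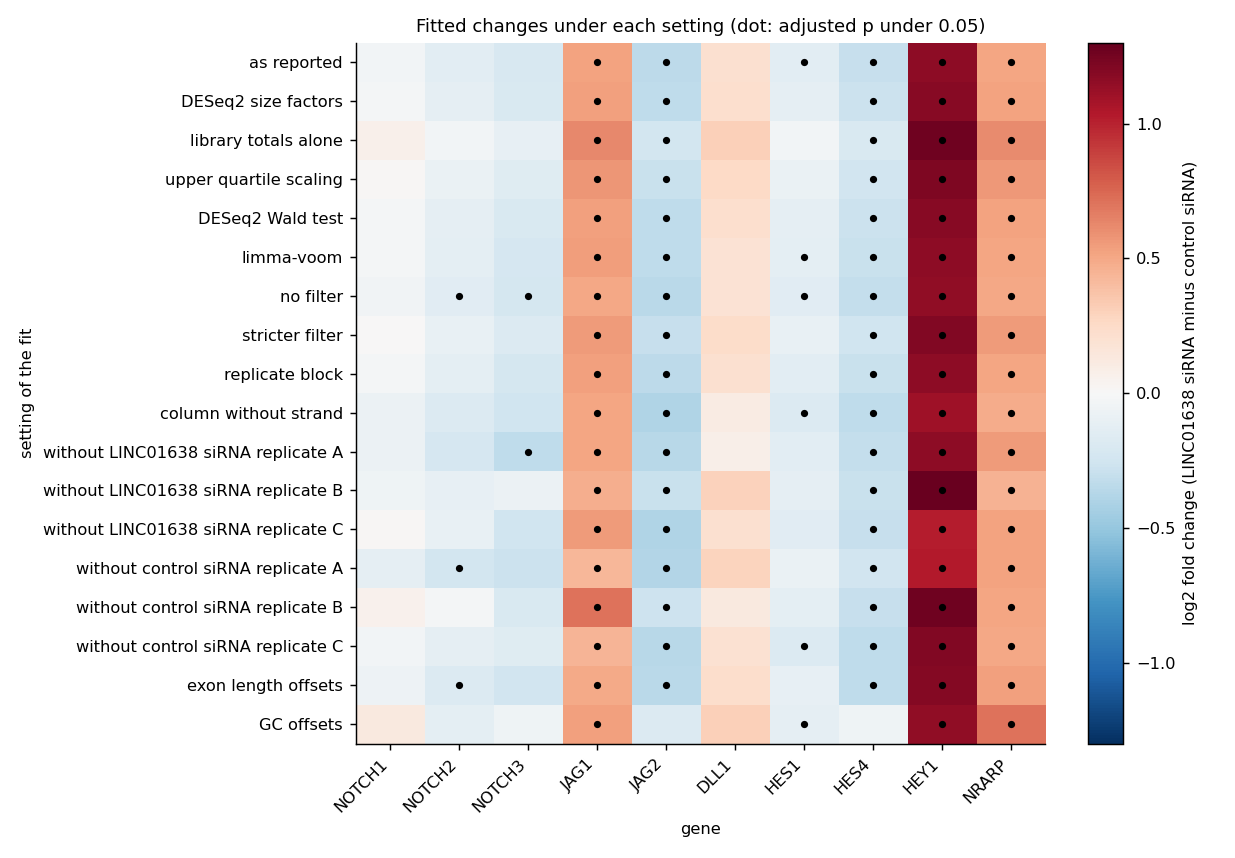
Log2 fold change (colour, LINC01638 siRNA minus control siRNA) of each Notch gene under the reported fit and 17 alternatives, with a dot where the adjusted p is under 0.05. The columns of JAG1, HEY1 and NRARP carry a dot in every row, and that of HES1 in few.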

How the data were processed

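Total RNA of 6 libraries was sequenced after ribosomal RNA depletion with a directional kit, per the labels' protocols. The authors deposited counts per gene, whole numbers without normalization, made with STAR 2.7.10b on GRCh38, per the submitters' processing notes (which also name R 4.2.1). Which annotation and mapping settings were used is not given in the sources. No read is listed as mapping to several places, and the 4 rows that name no gene were left out of library sizes. The reverse-strand column was used. Symbols were found for 61918 identifiers as written and for 707 once the version was dropped. Positions, exon lengths and GC content of the longest transcript came from GENCODE 29 on GRCh38, and exon length counts every annotated exon. This was not the annotation counted on, as only 58225 of the 62696 identifiers occur in it.

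Counts were filtered with filterByExpr (minimum count 10, minimum total 15), scaled by TMM and tested with edgeR 4.0.16 (quasi-likelihood F test, robust, group as the only term). Adjusted p-values (Benjamini-Hochberg) cover the 18569 genes tested, with a threshold of 0.05. SE was taken as the size of the log2 fold change over the root of F, and the 95% intervals use it. Alternatives used DESeq2 1.42.0, limma 3.58.1 and R 4.3.3, and other steps Python 3.11.15, with scipy 1.17.1. The edgeR, DESeq2 and limma fits were checked on simulated counts in which few genes were changed. Scaling where much of the transcriptome moves, as here, was not checked in this way, nor was the permutation test. Named genes were all 10 members, and of each other list up to 3 with the lowest p past the threshold, or 2 of the highest level where none passed. A gene that this rule takes is not reported here. For HEY1, the member with the largest change, the 3 protein-coding genes of at least 5 CPM with the most similar profile were also taken. Members and lists were chosen with earlier results of these data known.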

Additional observations from a re-analysis of the deposited data

How the results depend on the processing

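The counts of all genes called stayed within 1.5 times of the reported ones under each of the 17 alternatives. With library totals alone the median of all genes shifted by 0.102 on the log2 scale, and 6349 genes were higher and 4288 lower in place of 4887 and 5503. NOTCH1, which was never called, was positive there (0.068) and in some other settings, up to 0.12. The number of Notch members that rose was 3 in every setting. The number that fell was 5 without a filter on low counts and 1 with GC offsets, against 3 as reported, and 2 to 3 when 1 library was left out. HES1 lost its call with DESeq2 size factors (log2 fold change −0.12, adjusted p = 0.0540), library totals alone (−0.031, adjusted p = 0.620), upper quartile scaling (−0.083, adjusted p = 0.168), the DESeq2 Wald test (−0.12, adjusted p = 0.0752), the stricter filter of 1 CPM in 3 libraries (−0.10, adjusted p = 0.102) and exon length offsets (−0.11, adjusted p = 0.0594). Without single libraries HES1 ranged from −0.18 to −0.089, and it kept its call only without control replicate C (adjusted p = 0.0107). With GC offsets JAG2 (−0.17) and HES4 (−0.056) lost theirs. NOTCH2 passed without a filter (−0.15, adjusted p = 0.0286) and with exon length offsets (−0.18, adjusted p = 0.0460), and ranged from −0.24 to −0.028 without single libraries. NOTCH3 passed without a filter (−0.23, adjusted p = 0.00939) and ranged from −0.33 to −0.076 without single libraries. The GC and exon length offsets were added after the data were seen, and the cause of these differences was not tested.

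The replicate letters did not pair the libraries: deviations from the group means of same-lettered libraries correlated across genes with r = −0.0753, −0.0203 and −0.0177, and no library correlated best with its own letter. With the replicate block 4676 genes were higher and 5286 lower, and HES1 stood at −0.13 (adjusted p = 0.0630). Depth limits DLL1 and HEY1, which have under 100 counts in each library.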

Other observations

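Per kilobase of annotated exon, the receptor transcripts kept their proportions. NOTCH2 made up 67.5% ± 0.842 of the summed NOTCH1, NOTCH2 and NOTCH3 counts per kilobase in control libraries and 66.4% ± 0.886 in LINC01638 siRNA libraries (SD, n = 3 each). NOTCH1 made up 28.0% ± 0.620 and 29.4% ± 1.42, and NOTCH3 4.53% ± 0.402 and 4.18% ± 0.675. Among the ligands of the set the share of JAG1 went from 30.1% ± 3.14 to 42.8% ± 3.43 and that of JAG2 from 61.0% ± 1.48 to 47.3% ± 2.80, while DLL1 held 8.81% ± 1.82 and 9.87% ± 1.28. The NOTCH2 N-terminal-like copy NOTCH2NLB averaged 3.59 ± 0.551 CPM with control siRNA against 2.95 ± 0.296 after knockdown (edgeR adjusted p = 0.0785), and NOTCH2NLA 1.66 ± 0.220 against 1.54 ± 0.551 (0.687). These copies share sequence with NOTCH2 and their counts are uncertain.

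The genes whose profile over the 6 libraries was most like that of HEY1 were FAM229A (Pearson r = 0.997), GUSB (0.997) and DNASE2 (0.996), out of 10495 protein-coding genes searched. The 6 points share 2 groups and so mostly record the group difference: 1673 genes had r above 0.9. HEYL, too scarce to be tested, had 7, 4 and 5 counts in control and 14, 9 and 14 in LINC01638 siRNA libraries.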
